A study of Homo sapiens with 56 samples.

Results

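The apical polarity and trafficking genes are 10 named genes of epithelial cells, CRB3, PARD6B, LLGL2, OCLN, CGN, RAB25, MYO5B, AP1M2, MAL2 and PROM2, followed here over 28 established ovarian cancer cell lines. They were chosen by their levels across the same lines, so the levels and the correlations among them are given as a description, with no test. A gene counted as measured where a probe set was annotated to it alone, which held for 9 of the 10 among 18377 genes in all. The only probe set of OCLN also carries OCLNP1, so OCLN has no value. Each line was profiled untreated on 2 Affymetrix Human Gene ST arrays, and the labels do not say whether the 2 came from separate cultures. Differences between them may therefore be technical.

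The lines differ in the base medium they were grown in. DMEM/F12 was used for 7 lines (FUOV1, JHOS2, JHOS3, JHOS4, OV17R, OV56 and OV7), DMEM for 10 (CAOV3, CH1, DOV13, OAW28, OAW42, OVCA420, OVCA432, OVCA433, SKOV3 and TYKNU) and RPMI for 9 (A2780, COLO720E, EFO21, HEY, HEYC2, OVCAR2, OVCAR3, OVCAR5 and PEO1). UWB1.289 was grown in RPMI with MEGM and TOV112D in MCDB105 with M199. The amount of serum differed between lines, and some media held insulin. Each line was grown in 1 medium, so medium and line cannot be told apart.

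An epithelial cell has an apical surface, facing the lumen, and a basolateral one, with tight junctions at the border. The Crumbs and PAR complexes mark the apical side and are opposed by the lethal giant larvae proteins on the basolateral side. Membrane proteins reach the apical surface from recycling endosomes, on vesicles moved by Rab GTPases and myosin V motors. During epithelial-mesenchymal transition (EMT) cells give up this asymmetry.

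Array medians ran between 5.96 and 6.31 log2 units. 3 arrays (HEYC2 replicate 1, OV56 replicate 2 and OVCA420 replicate 1) had a narrower spread of values, with an SD of 1.84 to 1.89 log2 units against 2.09 to 2.32 on the other 53, and in 25 of 28 lines each array was most like its duplicate. The pooled SD of duplicates, 0.22 to 0.69 log2 units over the 28 lines for the 9 genes, was 0.09 to 0.59 over the 25 lines that hold none of these arrays. HEYC2, OV56 and OVCA420 values are therefore given with and without these arrays where they bear on a result. The second JHOS4 array is spelled JHSO4 in its label, and it was most like the first JHOS4 array of all (r = 0.9898). Of the 6 epithelial markers, EPCAM was lowest in HEYC2 (4.57), CDH1 in SKOV3 (3.88), KRT7 in OAW42 (5.94), KRT19 in FUOV1 (6.43), KRT8 in COLO720E (9.01) and KRT18 in A2780 (9.18), so not every line had all of them high. Markers of other cell types reached high levels in single lines, such as LUM in OVCAR2 (10.37), THY1 in OV17R (10.68), COL1A1 in SKOV3 (10.21), PECAM1 in TYKNU (9.79) and CD14 in CAOV3 (7.90), while CD3E and PTPRC reached at most 5.42 and 3.93. Their part in the results was not tested.

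The promoters of the genes that moved most closely together, RAB25, MYO5B and AP1M2, are shown with that of CRB3, which had the most matches to an E-box. Each sequence is the 250 bases before the RefSeq start of the gene (GRCh38.p14), read 5′ to 3′ along the gene's own strand. Capitals mark CACCTG, the E-box bound by ZEB and SNAI repressors, on either strand, where the other strand reads CAGGTG.
RAB25 (chr1:156060910-156061159, + strand): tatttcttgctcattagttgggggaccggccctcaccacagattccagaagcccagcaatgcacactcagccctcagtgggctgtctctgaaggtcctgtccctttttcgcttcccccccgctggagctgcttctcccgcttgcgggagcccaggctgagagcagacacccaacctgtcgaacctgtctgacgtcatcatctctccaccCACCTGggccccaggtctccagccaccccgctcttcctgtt
MYO5B (chr18:50195148-50195397, - strand): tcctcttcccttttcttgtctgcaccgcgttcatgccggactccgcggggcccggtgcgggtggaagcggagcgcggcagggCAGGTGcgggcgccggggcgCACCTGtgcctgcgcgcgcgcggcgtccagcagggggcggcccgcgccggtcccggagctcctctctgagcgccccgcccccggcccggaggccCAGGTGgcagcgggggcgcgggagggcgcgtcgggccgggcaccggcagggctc
AP1M2 (chr19:10587313-10587562, - strand): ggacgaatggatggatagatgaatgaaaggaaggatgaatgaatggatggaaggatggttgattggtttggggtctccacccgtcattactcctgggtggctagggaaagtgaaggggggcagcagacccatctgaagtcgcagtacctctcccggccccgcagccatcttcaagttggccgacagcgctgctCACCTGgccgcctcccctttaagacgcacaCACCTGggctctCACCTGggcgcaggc
CRB3 (chr19:6464021-6464270, + strand): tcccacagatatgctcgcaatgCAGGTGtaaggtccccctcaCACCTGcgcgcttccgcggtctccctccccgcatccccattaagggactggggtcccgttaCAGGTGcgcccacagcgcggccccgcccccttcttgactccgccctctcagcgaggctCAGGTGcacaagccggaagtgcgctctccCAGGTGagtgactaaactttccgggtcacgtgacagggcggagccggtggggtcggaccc
CACCTG occurred 1 time in the RAB25 window, 3 times in that of MYO5B, 3 times in that of AP1M2 and 5 times in that of CRB3, while the CGN and PROM2 windows held none. Of all 35116 windows of this length, 17.5% held it. OCLN had 2 windows with 1 match each. CACCTGA, a longer form that contains CACCTG, occurred in the CRB3 window and in 1 OCLN window, and in 3.35% of all windows. The Grainyhead-type cores AACCGGTT (0.117% of all windows) and AACCNGGTT (0.202%) occurred in none of the 8 windows. Their part AACCGG (5.99%) occurred in the CGN window and in 1 OCLN window, and TATAAA (10.7%) in none. All motifs were searched on both strands. A match is a run of letters, not a binding site, and a window without one says nothing about the factor.

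RAB25 differed by 10.10 and MAL2 by 10.24 log2 units between lines, whereas CRB3 differed by 1.25. In bulk RNA, fewer cells with a transcript and less of it per cell cannot be told apart. PEO1 had the highest level of RAB25, MYO5B, AP1M2, MAL2 and PROM2, and the lowest levels lay in SKOV3 (RAB25, MYO5B and CGN), HEY (MAL2, LLGL2 and CRB3), OVCAR2, TYKNU and UWB1.289. A range of 4 log2 units or more was found for 4 of the 9 measured genes (RAB25, MAL2, AP1M2 and PARD6B), against 7.24% of all 18377 genes. The genes were chosen by these levels, so nothing is read from that count. The midpoint between the lowest and the highest line mean was used below to call a gene high or low in a line. It depends on the extreme lines, and the same number of log2 units is not the same amount of RNA for different genes.

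**Figure D1:**
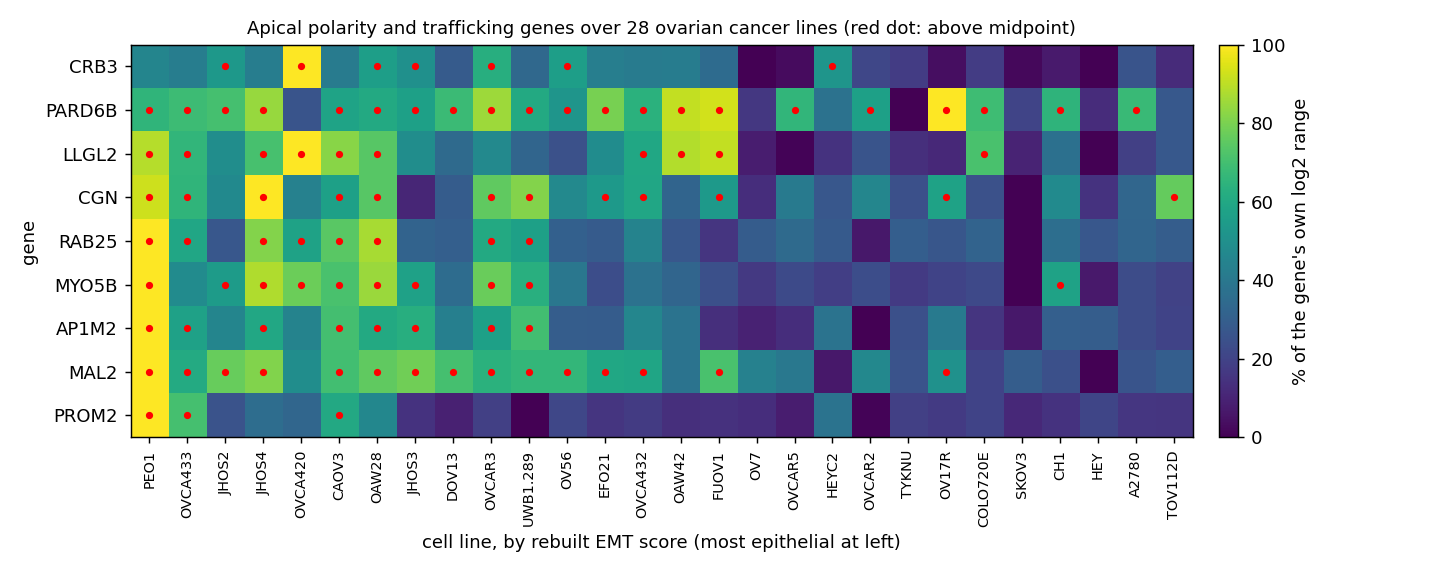
Level of the 9 measured genes (rows, by role) in 28 lines (columns, in order of the rebuilt EMT score), as percent of each gene's own range of log2 line means, with red dots where a line mean lies above the gene's midpoint. PEO1, CAOV3 and OAW28 have 8 dots each, and OV7, TYKNU, SKOV3 and HEY have none.

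Among the polarity genes, PARD6B was kept in most lines, LLGL2 varied over 2.50 log2 units and CRB3 over 1.25. CRB3, the Crumbs protein of most epithelia, had line means of 6.71 (HEY), 7.19 (median) and 7.96 (OVCA420) log2 units, with a pooled SD of duplicate arrays of 0.34. Of 27 steps between neighbouring lines in its order, 26 were smaller than that SD. The other genes had 19 (RAB25) to 27 (LLGL2) such steps, each against its own SD. Most neighbours in the CRB3 order thus do not differ beyond 0.34. Its highest value came from an array that stands apart: without the 3 arrays OVCAR3 was highest at 7.49 and the range was 0.79, against an SD of duplicates of 0.15, and 14 lines lay above the midpoint in place of 7. The range over all arrays was larger than that of 33.6% of genes. CRB3 thus varied little in size, although its order over lines followed the EMT score described below.

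PARD6B, a PAR complex adaptor that binds CDC42 and atypical protein kinase C, had 7.17 (TYKNU), 9.85 (median) and 11.34 (OV17R) log2 units, with an SD of duplicates of 0.40. Its midpoint was exceeded in 21 of 28 lines. It was low in TYKNU (7.29 and 7.05 on the 2 arrays), HEY at 7.69, OV7 at 7.85, SKOV3 at 8.02, OVCA420 at 8.25, TOV112D at 8.31 and HEYC2 at 8.74. The value of OVCA420 came from arrays that differed by 2.36. Its array that stands apart read 7.08 and the other read 9.43, above the midpoint of 9.25. Without the arrays that stand apart, PARD6B thus exceeded its midpoint in 22 lines, OVCA420 among them. HEYC2 then had 8.05 and stayed low.

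LLGL2, a lethal giant larvae protein that restricts the apical domain, had 5.95 (HEY), 7.01 (median) and 8.46 (OVCA420) log2 units and an SD of duplicates of 0.34. Levels above the midpoint were found in 10 lines. Without the 3 arrays FUOV1 was highest at 8.23 and HEYC2 lowest at 5.62, the midpoint was exceeded in 14 lines, and 17 of the 27 steps between neighbours in the order were under the SD of duplicates, which was then 0.11.

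Of the tight junction genes only CGN was measured. Cingulin, which links the junction to actin and myosin, had 5.51 (SKOV3), 7.06 (median) and 8.79 (JHOS4) log2 units, with an SD of duplicates of 0.22. In 12 lines it exceeded its midpoint. After JHOS4 came PEO1 at 8.54, UWB1.289 at 8.18, TOV112D at 8.01 and OVCAR3 at 7.99. JHOS3 had 5.87, the lowest after SKOV3, so lines of similar name lay near opposite ends of the order.

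Of the trafficking genes, RAB25, MAL2 and AP1M2 had wider ranges than the other 6 measured genes, whereas MYO5B, at 3.52 log2 units, ranged less than PARD6B. RAB25, an epithelial Rab of the RAB11 group that works in apical recycling, had 2.36 (SKOV3), 5.50 (median) and 12.46 (PEO1) log2 units. It lay above its midpoint in 8 lines, at 8.08 to 12.46, while 16 lines fell between 5.04 and 6.02. OVCA432 lay between these at 6.88. FUOV1, OVCAR2 and SKOV3 were lower still, at 3.93, 3.02 and 2.36. The FUOV1 arrays read 1.95 and 5.92, a gap of 3.96 against a pooled SD of 0.57, so its place in the order is not settled. Values this low were given with no detection call, so the order among the low lines may not be one of RNA amount.

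MYO5B, a myosin V motor that binds RAB11 and RAB25, had 4.51 (SKOV3), 5.71 (median) and 8.03 (PEO1) log2 units, with an SD of duplicates of 0.32. It lay above its midpoint in 10 lines, 7 of which also had RAB25 above. OVCA433 had RAB25 above its midpoint with MYO5B at 6.21, 0.06 below its own. JHOS2, JHOS3 and CH1 had the reverse.

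AP1M2, the epithelial medium chain of the AP-1 clathrin adaptor, had 5.64 (OVCAR2), 7.71 (median) and 11.06 (PEO1) log2 units and an SD of duplicates of 0.34. It lay above its midpoint in 8 lines, and all 8 of them had MAL2 and PARD6B above theirs. PEO1 exceeded the next line, CAOV3 at 9.43, by 1.63.

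MAL2, a tetraspan membrane protein needed for transport across the cell to the apical side, had 4.53 (HEY), 10.12 (median) and 14.77 (PEO1) log2 units. It lay above its midpoint in 15 lines. In 8 lines MAL2 was high and RAB25 low. They were DOV13, EFO21, FUOV1, JHOS2, JHOS3, OV17R, OV56 and OVCA432. In JHOS2 and JHOS3 MAL2 was at 12.37 and 12.55 and RAB25 at 5.12 and 5.56, whereas JHOS4 had both high, MAL2 at 12.82 and RAB25 at 10.58. The reverse was seen in OVCA420 alone, at 9.57 for MAL2 with arrays of 8.30 and 10.84. Without the array that stands apart its MAL2 exceeded the midpoint of 9.65, and all 8 lines with RAB25 above had MAL2 above too. The FUOV1 arrays read 10.02 and 13.59 for MAL2.

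PROM2, prominin-2 of apical protrusions, had 5.47 (UWB1.289), 6.03 (median) and 8.74 (PEO1) log2 units, with an SD of duplicates of 0.28. Only PEO1, OVCA433 at 7.78 and CAOV3 at 7.44 lay above its midpoint. These 3 also had PARD6B, LLGL2, CGN, RAB25, AP1M2 and MAL2 above theirs. UWB1.289 had the lowest PROM2 of all lines although 6 of the other genes were above their midpoints there.

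**Figure D2:**
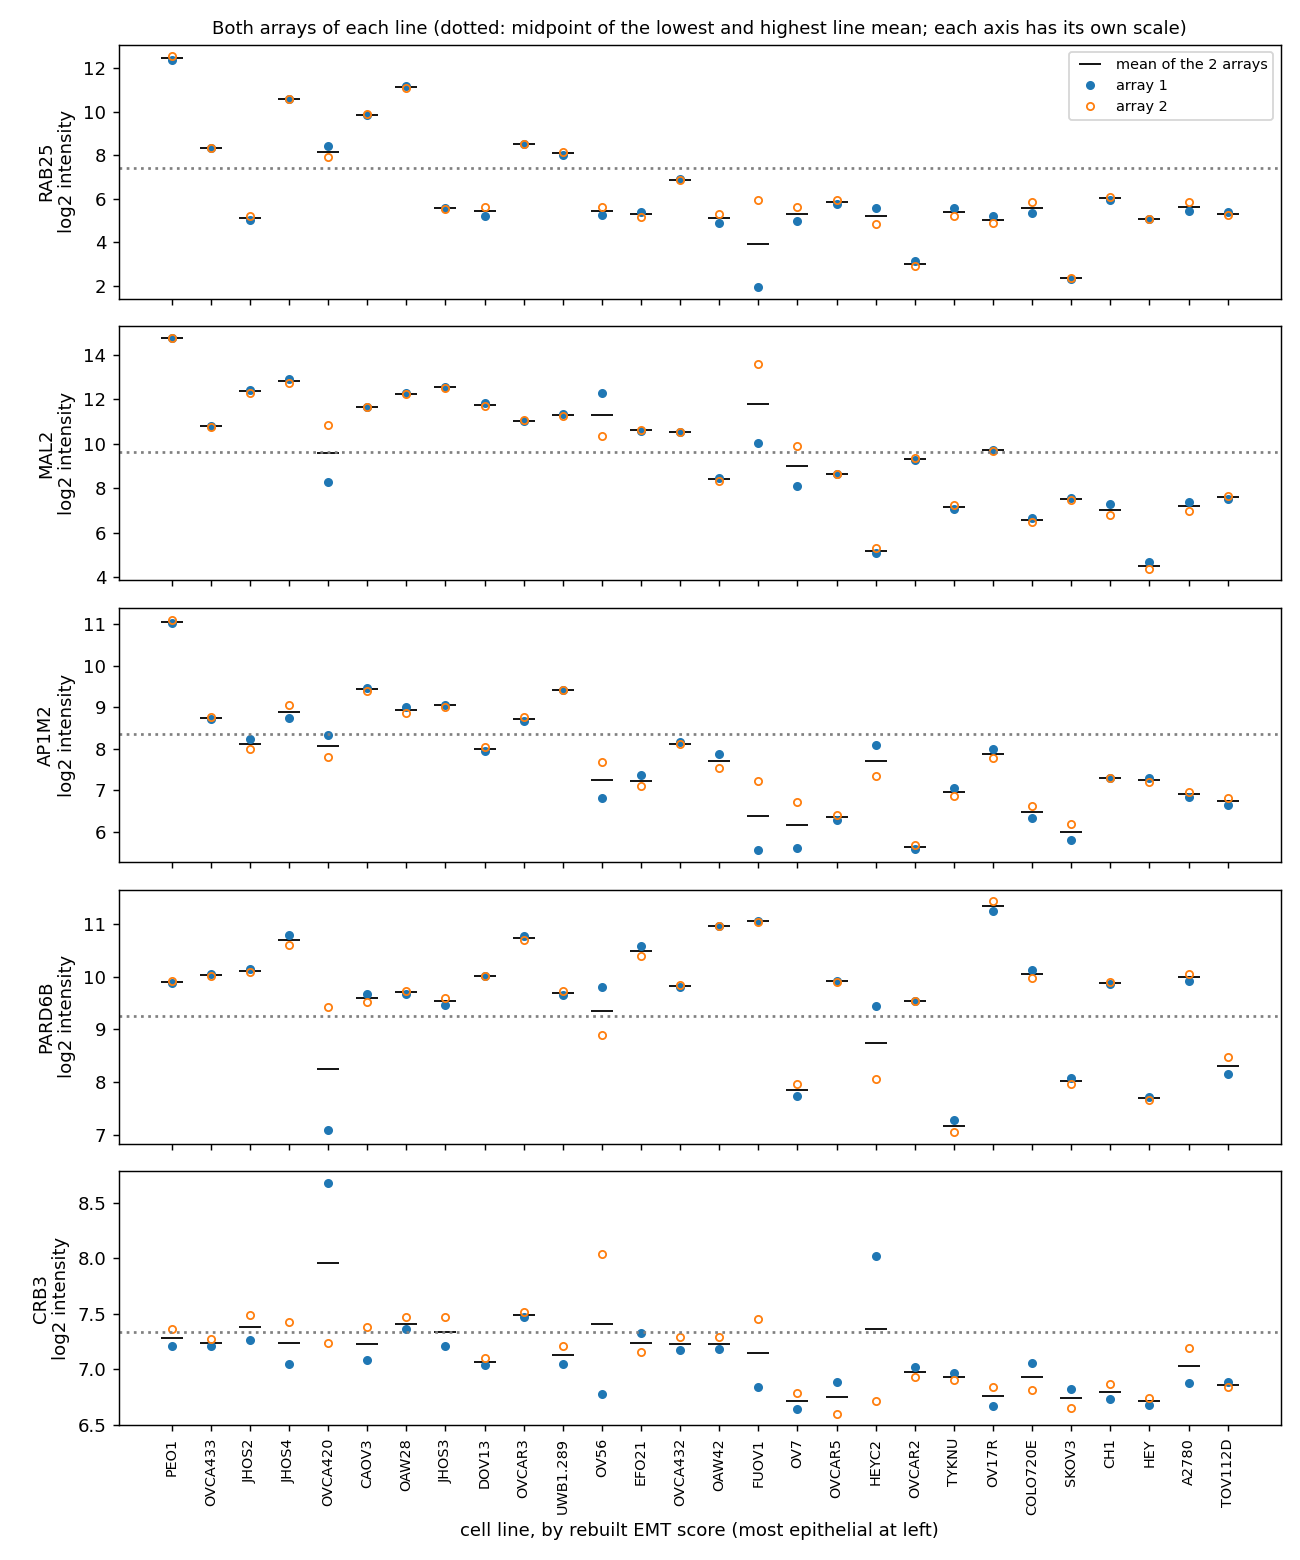
Log2 intensity of RAB25, MAL2, AP1M2, PARD6B and CRB3 on both arrays of each line, with the line mean as a bar and the midpoint dotted, lines in order of the EMT score and each panel on its own scale. Duplicates lie close in most lines, and the RAB25 and MAL2 arrays of FUOV1 and the CRB3 arrays of OVCA420 lie far apart.

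Over the lines, the number of genes above their midpoint ran from 0 to 8 of 9 with no gap. It was 8 in PEO1, CAOV3 and OAW28, and 7 in OVCA433, JHOS4 and OVCAR3. It was 0 in OV7, TYKNU, SKOV3 and HEY, and 1 in OVCAR5, HEYC2, OVCAR2, A2780 and TOV112D. The other 13 lines had 2 to 6. Without the 3 arrays the midpoints of CRB3 and LLGL2 were lower, 7.10 and 6.92 against 7.34 and 7.21, and the number was 9 in PEO1 and CAOV3, 8 in OVCA433, JHOS4, OAW28 and OVCAR3, 7 in UWB1.289 and in OVCA420 (4 with all arrays), and 0 in HEYC2 as well. Lines with 7 or more then numbered 8 in place of 6.

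A gene was called an exception where at least 7 of the other 8 measured genes lay on the other side of their midpoints. There were 22 exceptions, and both arrays were on the stated side in 16 of them. With the median over lines as the limit in place of the midpoint there were 11. PARD6B made 7, each time high in a line with at most 1 other gene high: OAW42 at 10.97, COLO720E at 10.05, DOV13 at 10.01, A2780 at 9.99, OVCAR5 at 9.92, CH1 at 9.88 and OVCAR2 at 9.54, against a midpoint of 9.25. The last lay 0.29 above it, less than the SD of duplicates over all lines (0.40). That SD was 0.09 over the 25 lines without the 3 arrays, less than 0.29. The midpoint lies below the PARD6B median over lines of 9.85 and was exceeded in 21 lines. High here thus need not mean raised, and OVCAR2 lay below that median. CGN stayed high in TOV112D, the line with the highest EMT score, at 8.06 and 7.97 on its arrays, where the other 8 genes were low. MAL2 was high in DOV13 (11.82 and 11.69), and LLGL2 in OAW42 (8.18 and 8.16) and COLO720E (7.69 and 7.80). MYO5B was high in CH1 at 6.54, 0.27 above its midpoint, less than its SD of duplicates over all lines (0.32). Over the 25 lines without the 3 arrays its SD was 0.23.

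In the opposite direction PROM2 was below its midpoint of 7.10 in JHOS4 (6.63), OAW28 (6.98) and OVCAR3 (6.08, with arrays of 6.03 and 6.13). OAW28 missed it by 0.13, less than the SD of duplicates of 0.28. The PROM2 midpoint depends on PEO1 at 8.74 and lies above the median over lines of 6.03, which these lines exceeded. CRB3 was low in CAOV3, JHOS4, OVCA433 and PEO1, by 0.11 or less and thus within its error. LLGL2 in OVCAR3 and MYO5B in OVCA433 were also low, by 0.08 and 0.06, within theirs. Without the 3 arrays the count of exceptions was 20. The 4 low CRB3 calls and the high one in HEYC2 were no longer among them. PARD6B again made 7, with OV56 in place of OAW42, and PROM2 made 5 with OVCA420 and UWB1.289 added.

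All 36 pairs of measured genes had a positive Pearson r over the 28 lines, with a median of 0.54. It ran between 0.0456 (PARD6B and PROM2) and 0.878 (RAB25 and MYO5B). The trafficking genes held the closest pairs, since RAB25 with AP1M2 reached 0.838 and MYO5B with AP1M2 0.831. Pairs at 0.5 or more numbered 21, and 29 without the 3 arrays. The median was 0.49 within DMEM/F12 (7 lines), 0.618 within DMEM (10 lines) and 0.632 within RPMI (9 lines). Spearman's rho had a median of 0.51. Without the 2 lines farthest from the median of each first gene the median r was 0.527, and without PEO1 it was 0.493.

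By gene, the median r with the other 8 was 0.67 for MYO5B, 0.638 for RAB25, 0.615 for AP1M2, 0.554 for MAL2, 0.531 for CGN, 0.527 for LLGL2, 0.483 for CRB3, 0.463 for PROM2 and 0.301 for PARD6B. PARD6B was thus the least coordinated on all arrays, and it reached 0.453 without the 3 arrays. The pairs share genes and lines, so these values are not independent.

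**Figure D3:**
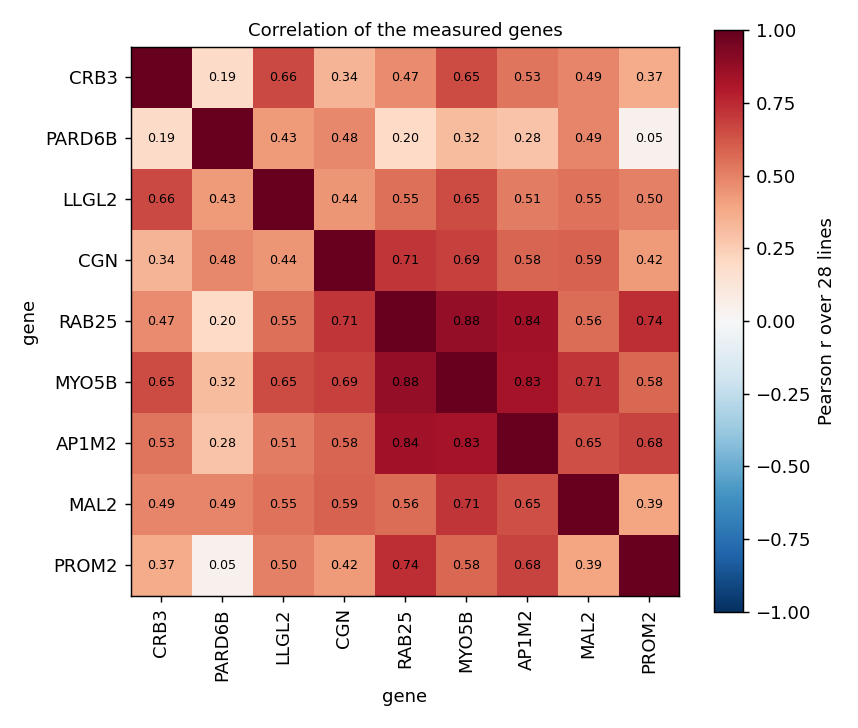
Pearson r over 28 lines between each pair of the 9 measured genes, coloured on a scale of -1 to 1 with the value in each cell. RAB25, MYO5B and AP1M2 form the block of highest values, 0.831 to 0.878, and PARD6B the row of lowest ones.

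The levels were then set beside an EMT score, which was recomputed from genes of the study's signature (182 epithelial genes, 200 mesenchymal ones) as a signed Kolmogorov-Smirnov statistic, which is higher in mesenchymal lines. LLGL2 and RAB25 belong to the signature and were left out of it. The score ran between -0.818 in PEO1 and 0.718 in TOV112D. Spearman's rho with it was -0.832 for MAL2, -0.791 for MYO5B, -0.753 for AP1M2, -0.735 for CRB3, -0.63 for LLGL2 and -0.568 for RAB25, a rho of -0.5 or less in 6 of 9, against 2.14% of all genes. It was -0.45 for PROM2, -0.427 for CGN and -0.253 for PARD6B. The genes were chosen with such relations known, so this count tests nothing.

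Within base media the order changed. MAL2 stayed at -0.821 in DMEM/F12, -0.721 in DMEM and -0.8 in RPMI. CGN had 0 in DMEM/F12, -0.564 in DMEM and -0.833 in RPMI, and PARD6B was 0.143, -0.164 and -0.333 in the same media. The array scores of HEYC2 were -0.208 and 0.694, and those of FUOV1 0.382 and -0.327, and OV7 (0.518 and -0.125) and OAW42 (0.179 and -0.148) also had arrays of opposite sign. These 4 lines have no settled place on the score over all arrays. For HEYC2, the score of -0.208 came from its array that stands apart.

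Close relatives of these genes mostly did not vary with them. AP1M1, the widely expressed medium chain of AP-1, ran the other way from AP1M2 (r = -0.488), at 7.94 (FUOV1), 8.72 (median) and 9.84 (OVCAR2) log2 units. OVCAR2, the line lowest in AP1M2, was thus the highest in AP1M1. RAB11A had r = 0.187 and RAB11B -0.136 with RAB25, and RAB11B had a range of 0.94 log2 units against 10.10 for RAB25. MYO5C varied with MYO5B (r = 0.594) and MYO5A did not (-0.103). MAL varied with MAL2 (0.639), with PEO1 highest at 13.11, whereas MALL had 0.112.

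Among the polarity genes, LLGL1 had r = -0.216 with LLGL2, PARD6A -0.194 and PARD6G -0.0886 with PARD6B, and CRB1 0.292 and CRB2 0.106 with CRB3. Without the 3 arrays the values of CRB1, CRB2 and PARD6A were -0.00935, -0.0737 and 0.0569, on the other side of 0. CGNL1, the paralogue of cingulin, had -0.186 with CGN and was highest in SKOV3 (8.52), where CGN was lowest. PROM1 had 0.158 with PROM2 and was highest in JHOS4 at 10.09. In place of OCLN, its relatives of the MARVEL family were read: MARVELD2 had an r of 0.65 and MARVELD3 of 0.861 with the mean of the 9 genes, each scaled to mean 0 and SD 1.

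**Figure D4:**
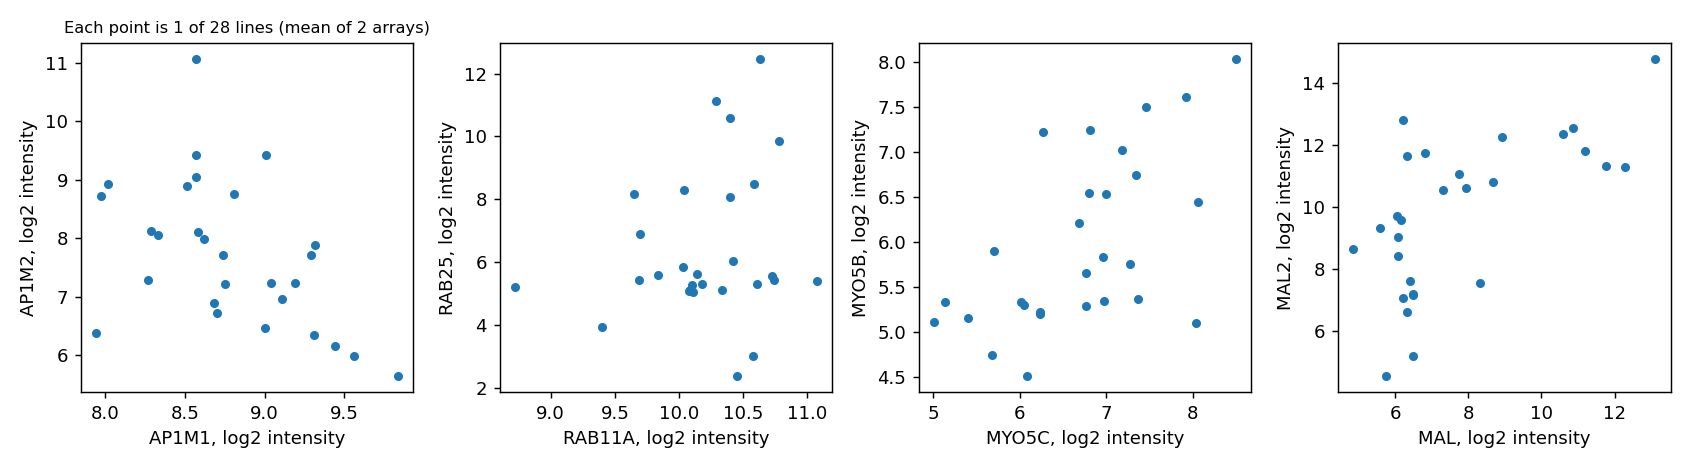
Line means (log2 intensity) of AP1M2, RAB25, MYO5B and MAL2 on the vertical axes against those of a paralogue, AP1M1, RAB11A, MYO5C and MAL, on the horizontal axes, with 1 point for each of 28 lines. AP1M2 tends to be lower where AP1M1 is higher (r = -0.488), RAB25 shows little relation to RAB11A (0.187), and the members of the other pairs vary together (0.594 and 0.639).

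Over all other genes, 2.1% had r of 0.5 or more with that mean and 1.01% had -0.5 or less. The most alike were SPINT1 (0.899), a membrane inhibitor of serine proteases, ERBB3 (0.878), BSPRY (0.875), OVOL2 (0.873), PRSS8 (0.87), CDS1 (0.861), MARVELD3, EPCAM (0.859), GRHL2 (0.857) and ST14 (0.856). ST14 encodes matriptase and PRSS8 prostasin, 2 proteases inhibited by SPINT1. All but MARVELD3 are genes of the EMT signature. The most opposed were LIX1L (-0.859), ZEB1 (-0.835), TANGO6 (-0.817), P3H1 (-0.807) and DYRK3 (-0.747). CDH1, encoding E-cadherin, had 0.829 and VIM, encoding vimentin, -0.725. For single genes, the closest was GRHL2 to RAB25 (0.925), PRSS8 to MYO5B (0.902), SPINT2 to MAL2 (0.889) and ST14 to AP1M2 (0.877). For the rest it was TMPRSS13 to PROM2 (0.845), TTC36 to CRB3 (0.82), SMPDL3B to CGN (0.81), PATJ to LLGL2 (0.789) and RHPN2 to PARD6B (0.777).

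Lists of partner genes, fixed with earlier results of these data known, differed in how many varied with the mean. Of the 8 epithelial transcription factors and splicing regulators listed, 7 had r of 0.5 or more, led by OVOL2, GRHL2 and GRHL1 (0.783), and GRHL3 (0.359) did not. Of 5 measured EMT transcription factors, ZEB1 and ZEB2 (-0.613) had -0.5 or less, SNAI2 had -0.482 and SNAI1 -0.0782. Of 6 tight junction genes 3 reached 0.5, MARVELD3, TJP3 (0.669) and MARVELD2, while TJP1, encoding ZO-1, had 0.184. Of 12 genes in the microvillus and apical scaffold list 4 did, led by EPS8L1 (0.809), TMC4 (0.735) and MISP (0.515). The list is broader than its name, and TMC4 is not a scaffold protein.

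The core complexes showed fewer. PATJ (0.743) was the only one of 7 Crumbs complex genes at 0.5 or more, PRKCZ (0.599) of 7 PAR complex genes, MYO5C (0.619) of 18 recycling and exocytosis genes and AP1G2 (0.583) of 7 AP-1 genes. In the Scribble complex 0 of 7 did, with DLG3 highest at 0.488. The opposed genes were AP1M1 (-0.655) and RAB8B (-0.514). The median r was -0.119 in the Crumbs list, 0.13 in the PAR list and 0.775 in the list of epithelial factors, against -0.00618 over all genes.

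Base medium was compared as a condition that the choice of genes did not use. Serum and insulin also differed between lines and were not compared. With limma on line means and Benjamini-Hochberg adjustment over all genes, none of the 9 genes differed between media. The share of genes called at an adjusted p under 0.05 was 0% for DMEM/F12 against RPMI, 0% for DMEM/F12 against DMEM and 0% for DMEM against RPMI. At an unadjusted p under 0.05 by limma, 398, 312 and 516 of 18377 genes (2.17%, 1.7% and 2.81%) passed in that order. Among them were 1, 0 and 0 of the 9, so nothing is read from that count.

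The 1 gene was MAL2. It had 9.02, 11.81 and 12.82 log2 units (lowest, median and highest) in DMEM/F12, against 4.53, 8.63 and 14.77 in RPMI. The groups overlapped, since PEO1 in RPMI exceeded every DMEM/F12 line. The difference was 2.71 ± 1.15 log2 units (standard error, 7 and 9 lines), with an unadjusted p of 0.0258 and an adjusted p of 0.9999 by limma. HEY had the lowest MAL2 of all lines and HEYC2 the next, at 5.20. The second HEYC2 array was most like an array of HEY (r = 0.9841), so these lines may not be independent. With HEY and HEYC2 merged, MAL2 differed by 2.24 between DMEM/F12 and RPMI. In DMEM it had 7.05, 10.06 and 12.26, and DMEM/F12 against DMEM gave 1.70 ± 1.12 (adjusted p of 1.0 by limma).

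Standard errors were large for RAB25 too. Those of MYO5B and AP1M2 were smaller, at 0.44 to 0.48 and 0.56 to 0.61. RAB25 averaged 5.85 ± 2.15 in DMEM/F12 (SD, 7 lines), 6.86 ± 2.57 in DMEM (10 lines) and 6.29 ± 2.70 in RPMI (9 lines), and its differences had standard errors of 1.10 to 1.20. LLGL2 differed by 0.53 ± 0.34 between DMEM and RPMI, and PARD6B by 0.65 ± 0.52 between DMEM/F12 and DMEM (standard errors). With these errors a difference of a log2 unit in RAB25 or MAL2 was not detectable.

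**Figure D5:**
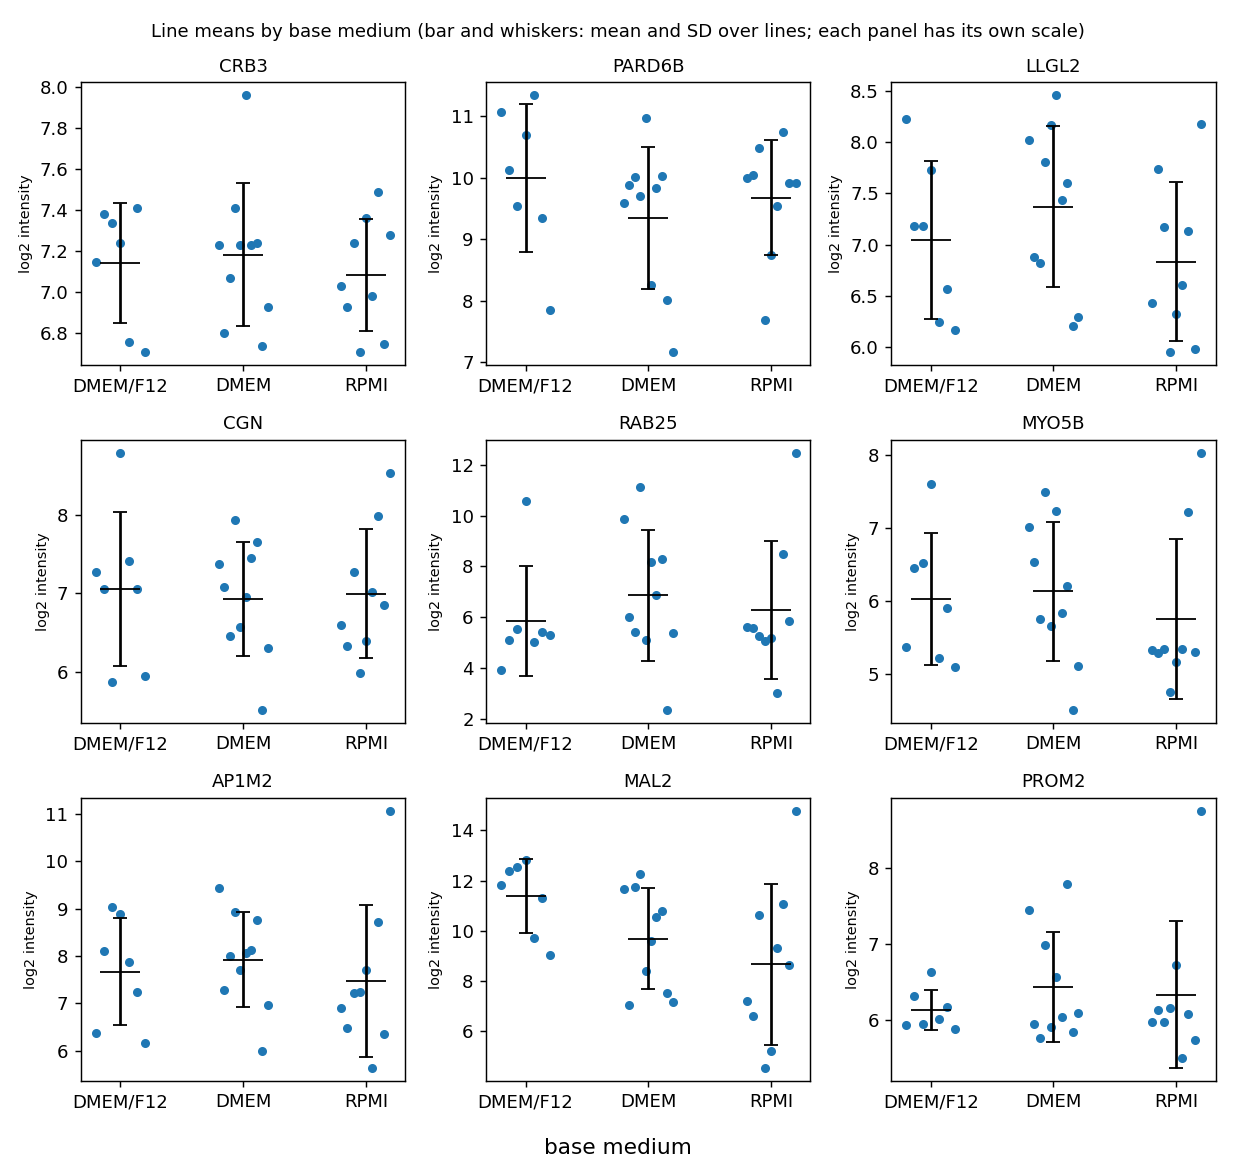
Line means (log2 intensity) of the 9 measured genes by base medium, DMEM/F12 (7 lines), DMEM (10 lines) and RPMI (9 lines), with the mean and SD over lines as a bar and whiskers and each panel on its own scale. The media overlap in all 9 panels, and MAL2 has its highest mean in DMEM/F12, 11.37 against 9.67 in DMEM and 8.66 in RPMI.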

How the data were processed

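Expression was measured in 28 ovarian cancer cell lines with 2 Affymetrix Human Gene ST arrays each. Log2 intensities were deposited by the authors after RMA in affy 1.42.3, per the submitters' processing notes. Which arrays were normalized together, batches and filters are not given in the sources used here. Array medians and spreads were not identical, so the values are not at one common distribution. The number of arrays limits the precision.

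Of 28869 probe sets, 19310 carry 1 gene and 1752 several, and only the first were used. For the 685 genes with several such probe sets, the brightest on average was kept, and the 2 arrays of a line were averaged. Pairs of media were compared in limma 3.58.1 (R 4.3.3, trend and robust) in a fit of 26 lines with 1 shared spread. On simulated data for DMEM against RPMI with 18377 genes, it recovered 76% of genes changed by 1 log2 unit and 92% of those changed by 2, with 14 false calls. The changed genes were drawn at random from all genes, each with its own spread. These shares do not apply to genes as variable as RAB25 and MAL2, with standard errors of 1.1 and 1.05 in that comparison. The EMT score used the signature genes of a study list that holds 420, fewer than the signature the study describes; after leaving out the 2 members, 182 epithelial and 200 mesenchymal genes had values. Correlations were computed in scipy 1.17.1.

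The genes, lists and rules were chosen with earlier results of these data known. Named genes were the 10 genes, their paralogues, the 10 most alike and 5 most opposed to their mean, up to 3 of each list by size of r, and EPCAM, CDH1, GRHL2, ZEB1 and VIM. GRHL3, SNAI1, TJP1, the cell type markers and the genes closest to single members were named after their values were seen. The planned rules named 10 genes, and with OCLN not measured they were applied to 9: an exception needs 7 of the other 8. Alternatives were single arrays, the mean over probe sets, a further quantile normalization, leaving out the 3 arrays or PEO1 (the last chosen after seeing the data), HEY and HEYC2 merged, a low-value filter that left 13782 genes, other limma settings, medians as limits, and another score. Promoters came from RefSeq (GRCh38.p14) and were present for 7 of the 10 genes.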

Additional observations from a re-analysis of the deposited data

Results flagged for a closer look

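Within each base medium of 4 to 10 lines, the highest and lowest line of each gene were set against Dixon's limit, and 2 of 27 such groups had a line that stood apart. The limit flags about 1 in 20 groups by chance only where groups are unselected and independent. These genes were chosen by their levels and share lines, so the count is a description and tests nothing. RAB25 in JHOS4 was 10.58 log2 units among 7 lines in DMEM/F12, where the next line, JHOS3, had 5.56. PROM2 in PEO1 was 8.74 among 9 lines in RPMI, where the next, HEYC2, had 6.72. Without its array that stands apart HEYC2 had 6.19.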

How the results depend on the processing

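The 0 genes called for DMEM/F12 against RPMI and for DMEM against RPMI stayed 0 under every alternative run. For DMEM/F12 against DMEM, 0 to 1 genes were called when only 1 array of each line was kept (1 with array 2 alone, none of them among the 9). With the line as a random block (consensus correlation 0.536) and the replicate number as a replicate block, 0 genes were called in each comparison. The numbers do not pair the arrays: over 378 pairs of lines, the deviations of same-numbered arrays correlated between -0.887 and 0.871 (median -0.000247), and 91 pairs exceeded 0.1.

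The number of exceptions was 22, and 11 with the median over lines in place of the midpoint; the cause was not tested. It was 16 to 20 with 1 array of each line and 15 without PEO1. The median r of pairs ran from 0.464 to 0.587 with 1 array of each line. No difference between media passed its test, and some small ones changed sign. Without the 3 arrays and without PEO1, CGN in DMEM against RPMI was 0.03 and 0.13 (-0.07 with all arrays). With HEY and HEYC2 merged, CGN in DMEM/F12 against RPMI was -0.04. Without PEO1, RAB25 and PROM2 in DMEM/F12 against RPMI were 0.33 and 0.10.

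With 1 array of each line, DMEM/F12 against RPMI ran from -0.25 to 0.36 for CRB3, from -0.01 to 0.13 for CGN, from -0.07 to 0.45 for AP1M2 and from -0.44 to 0.03 for PROM2. DMEM/F12 against DMEM ran from -0.30 to 0.21 for CRB3 and from -0.54 to 0.03 for AP1M2, and DMEM against RPMI from -0.0044 to 0.21 for PROM2. The cause was not tested.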
